A study of Mus musculus with 28 samples.

Results

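The regions described here were 455 stretches of the mouse genome that carried acetylation of histone H3 at lysine 27 (H3K27Ac) in embryonic stem cells without Spen, carried no such peak in wild-type cells, and lay in wild-type cells inside a domain of trimethylation of histone H3 at lysine 9 (H3K9me3). They were chosen from the peak lists themselves: an H3K27Ac peak of the Spen KO list on an autosome was a member if it shared no base with a peak of the WT list and overlapped a WT H3K9me3 domain by at least 1 bp. The Spen KO list held 11932 peaks, of which 11620 lay on the 19 autosomes. Members were split by whether their WT domain overlapped any Spen KO H3K9me3 domain: 99 members lay at lost domains, with no Spen KO counterpart, and 356 at kept domains. Because the H3K27Ac and H3K9me3 lists made the choice, the values of these lists at the members describe the choice and carry no test.

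H3K27Ac marks active promoters and enhancers and is laid down by acetyltransferases that transcription factors bring to DNA. H3K9me3 marks silent chromatin, and in embryonic stem cells it covers endogenous retroviruses, clusters of zinc finger genes and the methylated copy of imprinted control regions. Spen is an RNA-binding repressor that joins Xist RNA and brings histone deacetylase activity to chromatin. H3K4me3 marks promoters, and Oct4 is a transcription factor of the pluripotent state.

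WT cells were HATX, a haploid line of mouse embryonic stem cells of mixed genomic background in which doxycycline switches on an Xist transgene placed on the X chromosome, and Spen KO cells were clone 2 of the same line with most of the Spen gene deleted. Both were grown in serum and LIF, the labels give no doxycycline treatment for these samples, and 1 clone means that genotype and clone cannot be told apart. The series held 28 samples: 16 ChIP libraries, 2 for each of the 4 antibodies (H3K27Ac, H3K4me3, H3K9me3, Oct4) in each genotype, and 12 inputs. Each histone mark came as 1 list per genotype, so no histone comparison below has a replicate test, and the read depth behind the lists is unknown. Only Oct4 came as 1 list per library, and the study calls the 2 libraries of a genotype technical replicates, so its p-value measures technical spread.

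Stem cell genes were marked in both genotypes. H3K4me3 lay within 1000 bp of the transcription start site (TSS) of 9 of 9 stem cell marker genes found in the annotation in WT and in Spen KO, and H3K27Ac at 8 in WT and 7 in Spen KO. H3K4me3 was not particular to them: it lay at 6 of 6 primitive endoderm genes in each genotype, at 3 of 4 trophoblast genes in each, and at 4 (WT) and 3 (Spen KO) of 6 fibroblast genes. H3K27Ac was listed at 0 of the 6 primitive endoderm, 4 trophoblast and 6 fibroblast genes in either genotype. The lists differed in length: on autosomes there were 13749 WT and 11620 Spen KO H3K27Ac peaks, 33695 and 29978 H3K4me3 peaks, and 50521 and 65419 H3K9me3 domains. The WT H3K9me3 domains, though fewer, covered more sequence, with 372.8 Mb against 346.7 Mb.

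To show what these regions are made of, the sequence at the middle of the peak is printed for the 3 members with the highest H3K27Ac score at lost domains and for 2 members of high score at kept domains (mm9, which is NCBIM37, plus strand, at most 300 bases). Capitals mark a match to any of the motifs ATGCAAAT (Oct4 octamer), AAGGTCA (Esrrb), GGGTGTG (Klf), CCGGAAG (ETS), TGANTCA (AP-1) and CACGTG (E-box), read on both strands. At lost domains the 3 windows were:
Dclk2 intron, chr3:86644798-86645097: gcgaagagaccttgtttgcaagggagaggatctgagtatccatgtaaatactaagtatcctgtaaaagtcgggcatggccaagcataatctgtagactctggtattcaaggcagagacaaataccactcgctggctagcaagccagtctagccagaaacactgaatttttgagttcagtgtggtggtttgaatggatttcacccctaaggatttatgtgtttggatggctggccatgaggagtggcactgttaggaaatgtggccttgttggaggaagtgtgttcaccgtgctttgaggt
Ak4 intron, chr4:101117561-101117860: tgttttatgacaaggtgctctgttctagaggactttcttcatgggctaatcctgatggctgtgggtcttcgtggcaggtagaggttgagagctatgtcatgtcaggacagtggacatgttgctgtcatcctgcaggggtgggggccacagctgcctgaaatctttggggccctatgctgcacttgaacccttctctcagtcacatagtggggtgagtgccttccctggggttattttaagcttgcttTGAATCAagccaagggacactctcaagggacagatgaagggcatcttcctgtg
Zrsr1 upstream, chr11:22872370-22872669: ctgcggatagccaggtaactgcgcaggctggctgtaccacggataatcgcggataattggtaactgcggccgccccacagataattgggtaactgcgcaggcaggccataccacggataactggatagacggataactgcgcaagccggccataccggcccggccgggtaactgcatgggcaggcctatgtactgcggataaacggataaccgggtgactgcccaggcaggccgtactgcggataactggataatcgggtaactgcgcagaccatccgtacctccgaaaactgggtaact
The window upstream of Zrsr1 was made of short GC-rich units that recur within it, and it held none of the 6 motifs.

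At kept domains 2 windows of high score were:
nearest gene Chrm3, chr13:9833497-9833796: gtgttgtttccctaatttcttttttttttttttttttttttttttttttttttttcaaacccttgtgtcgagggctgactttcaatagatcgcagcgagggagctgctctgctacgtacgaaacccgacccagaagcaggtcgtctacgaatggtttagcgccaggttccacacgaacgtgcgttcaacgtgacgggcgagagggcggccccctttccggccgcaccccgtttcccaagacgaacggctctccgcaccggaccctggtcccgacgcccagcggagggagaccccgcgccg
nearest gene Dnahc7c, chr1:46707041-46707340: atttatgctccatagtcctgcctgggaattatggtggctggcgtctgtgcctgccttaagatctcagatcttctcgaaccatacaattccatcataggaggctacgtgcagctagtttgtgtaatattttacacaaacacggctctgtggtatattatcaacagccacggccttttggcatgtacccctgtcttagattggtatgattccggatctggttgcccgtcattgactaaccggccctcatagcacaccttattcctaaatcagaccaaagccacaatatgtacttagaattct
The first of these is a 317 bp peak with a run of T and a stretch rich in CpG, which is known as sequence of the large ribosomal RNA (background, not tested here). The second is from a peak of 2899 bp near Dnahc7c.

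A set of 36 members also shared sequence with one another, and 5 of them are printed around a word of 31 bases, in capitals, that 23 of the 36 held without a mismatch:
nearest gene Aptx, chr4:40542856-40542956, minus strand: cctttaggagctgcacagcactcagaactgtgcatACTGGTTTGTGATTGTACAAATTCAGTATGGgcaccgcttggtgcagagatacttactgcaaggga
nearest gene Tdrd3, chr14:87790759-87790859: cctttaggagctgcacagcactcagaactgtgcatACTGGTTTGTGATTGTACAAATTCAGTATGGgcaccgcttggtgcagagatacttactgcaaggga
nearest gene Il7, chr3:7567371-7567471: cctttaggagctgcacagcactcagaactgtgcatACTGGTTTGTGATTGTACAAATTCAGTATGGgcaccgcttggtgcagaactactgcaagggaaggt
nearest gene Acn9, chr6:6974736-6974836, minus strand: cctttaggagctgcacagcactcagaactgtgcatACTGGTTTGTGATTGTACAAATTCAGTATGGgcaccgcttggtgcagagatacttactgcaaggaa
nearest gene Arntl2, chr6:146739210-146739310: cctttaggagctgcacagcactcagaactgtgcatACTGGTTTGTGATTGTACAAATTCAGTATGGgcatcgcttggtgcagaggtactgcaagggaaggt
The flanks were nearly identical although the 5 copies lay on 4 chromosomes. The word had 192 copies in the genome.

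The gain of H3K27Ac inside WT H3K9me3 domains was part of a wider difference between the lists. Of the 11620 autosomal Spen KO peaks, 3326 (28.6%) shared no base with the WT list, and 2871 of these lay outside WT domains. Among the 1203 Spen KO peaks inside WT domains, the 455 members were 37.8%, and the other 748 were shared with WT. In the other direction, 361 WT peaks inside WT domains shared no base with the Spen KO list. Inside domains gains stood at 455 against 361 losses. Outside domains the balance was the opposite, at 2871 gains against 5146 losses, and over all autosomal WT peaks 5507 (40.1%) shared no base with the Spen KO list.

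The members were weaker and narrower than the shared peaks. The 2 values that the list gives for each peak, one per library, had medians of 16.0 (first value, range 9.79 to 52.8) and 15.2 (second value, 9.41 to 48.0) over the 455 members, against 23.1 and 20.8 over the 748 shared peaks inside WT domains. The median member had a mean score at percentile 29.1 of the Spen KO list and was 806 bp wide, against percentile 63.9 and 1301 bp for the shared peaks. Gained peaks outside domains had medians of percentile 27.6 and 699 bp. WT-only peaks inside domains had percentile 30.8 of the WT list and 870 bp, so the trait was not particular to the members. Members at lost domains (median 999 bp, first value 15.5, second value 16.0) were wider than those at kept domains (724 bp, 16.2 and 14.8) and about as strong. A total of 120 members lay in the stronger 50% of the Spen KO list.

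Just inside and outside the rule, 98 members lay within 1000 bp of a WT H3K27Ac peak, the nearest at 68 bp, and 246 lay over 10 kb away. One Spen KO peak inside a WT domain was left out for sharing fewer than 100 bp, 17 bp, with a WT peak. The overlap with a domain was under 100 bp for 11 members, the smallest being 8 bp, and 99 Spen KO-only peaks lay within 1000 bp of a domain without touching it.

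**Figure D1:**
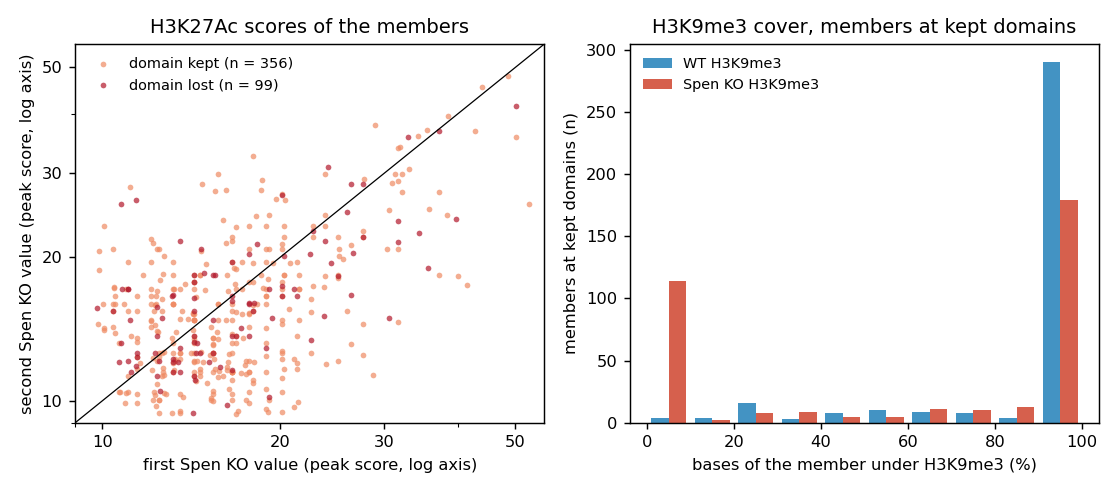
Left, the 2 deposited H3K27Ac values of each member (peak scores, log axes) for 99 members at lost and 356 at kept domains, with the line of equal values; both classes span the same range, from about 10 to about 50. Right, the share of bases under H3K9me3 (percent, bins of 10) for the 356 members at kept domains: most lie under WT H3K9me3 from end to end, while the Spen KO cover falls into a group near 0 and a group near 100.

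Most members sat well within H3K9me3. In WT, 340 of 455 (74.7%, Wilson 95% interval 70.5 to 78.5) lay wholly inside domains, 61 of 99 at lost and 279 of 356 at kept domains. In Spen KO, a domain reached 252 of the 356 peaks at kept domains and covered 166 of them from end to end, so that H3K27Ac and H3K9me3 were listed over the same bases. The other 104 kept members had a Spen KO domain on another part of the same WT domain and none over the peak. One such place was chr10:8275826-8281561, near Ust, where 5 members lined one WT domain of 12000 bp and none was under Spen KO H3K9me3. The histone lists come from populations of cells, so marks on the same bases need not be on the same chromosome copy.

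The members occupied 371 of the 50521 WT domains, with 308 domains holding 1 member, 47 holding 2, 11 holding 3, 3 holding 4 and 2 holding 5. Domains with a member were wider (median 6800 bp) than all WT domains (5400 bp). The rule asked for an overlap of 1 bp, which a wider domain meets more easily, so this difference describes the choice. Over the genome 6217 WT domains (12.3%) had no Spen KO counterpart, and these were short, with a median of 3600 bp against 5800 bp for kept ones. Of the members, 21.8% (Wilson interval 18.2 to 25.8) lay at lost domains. The same share was 20.3% (17.6 to 23.4) for the 748 peaks shared between genotypes and 22.7% (18.7 to 27.3) for the 361 WT-only peaks, so domains under H3K27Ac of any kind were listed as lost at about the same share, and the gained peaks did not stand apart. The share moved with the lists used: it was 31.5% with the WT and Spen KO lists of every mark cut to one length, and 11.6% with the stronger 50% of WT domains alone.

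H3K4me3 moved with H3K27Ac at part of the members. It was listed at 37 of 455 members in WT (8.13%) and at 58 in Spen KO (12.7%). Over all autosomal Spen KO H3K27Ac peaks the shares were 61.2% and 59.5%, and at shared peaks inside domains 28.6% and 29.5%. Of the members, 34 had H3K4me3 in both genotypes, 24 in Spen KO only and 3 in WT only. The 361 WT-only peaks showed the reverse, with 1 in Spen KO only and 23 in WT only. The 24 were 5.27% of the members (3.57 to 7.73), beside 3.67% of all autosomal Spen KO H3K27Ac peaks and 5.19% of the 2871 gained outside domains. A share of this size is near those others, so the share that gained H3K4me3 did not set the members as a whole apart. The 3 in WT only were 0.659% of the members, beside 5.37% of all autosomal Spen KO H3K27Ac peaks. That share was 3.76% at peaks gained outside domains and 4.68% at shared peaks inside them. Only the 37 members with H3K4me3 in WT could lose it. The 34 with H3K4me3 in both genotypes were 7.47% of the members, beside 55.8% of all autosomal Spen KO H3K27Ac peaks.

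By class, 13 of 99 members at lost domains (13.1%, 7.84 to 21.2) had H3K4me3 in Spen KO only, against 11 of 356 at kept domains (3.09%, 1.73 to 5.45). Among the 152 shared peaks at lost domains the count was 14 (9.21%, 5.57 to 14.9), an interval that overlaps that of the lost members. No H3K4me3 was listed in either genotype at 394 members. The other 13.4% had it in at least 1 genotype, beside 64.8% of all autosomal Spen KO H3K27Ac peaks and 34.2% of the shared peaks inside domains. The intervals cover counting error only, neighbouring peaks are not independent, and there is 1 list per genotype.

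**Figure D2:**
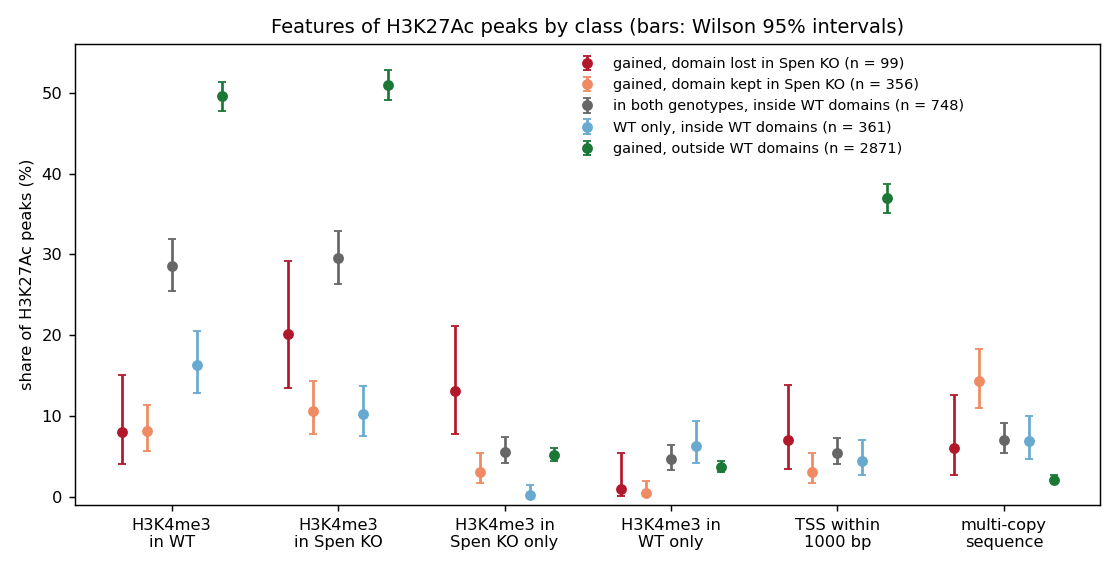
Share of H3K27Ac peaks (percent, with Wilson 95% intervals) that have H3K4me3 in WT, in Spen KO, in Spen KO only and in WT only, a protein-coding TSS within 1000 bp, or multi-copy sequence, for 5 classes of peaks. Members at lost domains have the highest share with H3K4me3 in Spen KO only, at 13.1%, and the gained peaks outside domains stand above the classes inside domains for H3K4me3 in WT, H3K4me3 in Spen KO and TSS, but not for H3K4me3 in 1 genotype only.

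The members were seldom at promoters. A protein-coding TSS lay within 1000 bp of 18 members (3.96%, 2.52 to 6.17), 7 at lost and 11 at kept domains, against 36.9% (35.2 to 38.7) of the gained peaks outside domains and 5.48% (4.07 to 7.35) of the shared peaks inside them. The median distance to a TSS was 17767 bp at lost and 33232 bp at kept domains. Of the 455, 341 were intergenic, 87 lay in introns only and 27 touched an exon. Gained peaks inside and outside domains also differed in base composition, with a median GC content of 46.3% and 51.1%, while the shared peaks inside domains had 45.8%.

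The clearest promoter was that of Zrsr1, a retrogene for a splicing factor-like protein that is imprinted and lies within an intron of Commd1. The member chr11:22871921-22873119 ended 95 bp before the Zrsr1 TSS (gene at chr11:22873215-22876498, plus strand), in the repeat-rich sequence printed above. Its H3K27Ac values were 32.9 and 35.8 in Spen KO, with the nearest WT peak 22742 bp away. The WT domain over it was 13000 bp wide and had no Spen KO counterpart, H3K4me3 was listed in Spen KO only, and Oct4 was listed in both WT libraries, at 6.43-fold and 9.57-fold over input, and in neither Spen KO library. Beside the lists that chose this member, H3K4me3 and Oct4 thus also differed here.

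The list of imprinted genes gives its setting. Of 30 such genes with a TSS on the autosomes, 19 had WT H3K9me3 within 1000 bp of a TSS, and 8 of these 19 had none in Spen KO, beside 515 (24.9%) of the 2065 genes with WT H3K9me3 at a TSS on the autosomes. The 8 were Commd1, Grb10, Igf2r, Kcnq1, Mcts2, Nnat, Zim1 and Zrsr1. H3K27Ac in Spen KO only was added at 2 of the 8, Commd1 and Zrsr1, which are neighbours, and a member was at 1, Zrsr1. The 11 that had H3K9me3 in both genotypes included Peg3, Snrpn, Plagl1 and Impact, and none of them gained H3K27Ac. A second imprinted place, named after its values were seen, was an intron of Gpr1 (gene at chr1:63229265-63261117), the neighbour of the imprinted Zdbf2: the member chr1:63245772-63248043 had values of 35.6 and 18.99, lay in a lost domain of 9800 bp, and had H3K4me3 in Spen KO only. Oct4 was listed at this member in WT replicate 2 alone, at 5.07-fold over input. The member nearest to Zdbf2 itself, chr1:63370381-63371114, had values of 26.4 and 28.5. It lay at a lost domain and had no H3K4me3 in either genotype.

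Ak4, a mitochondrial adenylate kinase, held 3 members side by side in 1 lost domain of 4000 bp. The strongest, chr4:101116345-101119077, had values of 37.1 and 36.8, H3K4me3 in Spen KO only, and Oct4 in Spen KO replicate 2 alone. The next, chr4:101119237-101120943, covered an annotated TSS inside the gene and had 25.1 and 18.2. Dclk2, a doublecortin-like kinase, also held 3 members, all at lost domains. Its peak chr3:86644535-86645360 had the highest score of any lost member, with values of 50.1 and 41.4, gained H3K4me3, and lay 917 bp from a WT H3K27Ac peak and 78896 bp from the nearest Dclk2 TSS. Its neighbour chr3:86642775-86644346 had 39.7 and 24.1 and no H3K4me3, and chr3:86665995-86667863 had 23.7 and 15.1 and H3K4me3 in both genotypes. F2rl1, a protease-activated receptor gene named after its values were seen, held 2 weak members in 1 lost domain of 3000 bp, both with H3K4me3 in Spen KO only.

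Other members with high scores at lost domains were chr3:135213983-135215973 in Manba, a lysosomal mannosidase (34.4 and 22.5), and chr18:20934147-20935685, 29241 bp from B4galt6 (27.7 and 28.5). Both were without H3K4me3 in either genotype. The intergenic member chr2:92314796-92317058 near Slc35c1, a GDP-fucose transporter, had 24.1 and 30.99 and gained H3K4me3. At kept domains, gained H3K4me3 came with high scores at chr10:8278582-8280514 near Ust (31.7 and 33.96) and at chr5:54063013-54064035 near Cckar, a cholecystokinin receptor gene (32.1 and 27.4). Intergenic members of high score at kept domains included chr1:46705742-46708640 near Dnahc7c (50.1 and 35.8), 200228 bp from any WT peak, chr11:114428162-114431432 near Rpl38 (42.8 and 36.8), with H3K4me3 in both genotypes, and chr8:18478612-18480000 near Mcph1 (38.5 and 39.6). The member chr15:64426110-64426410 near Asap1 (52.8 and 25.8) had a median of 609 genome copies per word. The host gene with most members was Etl4, with 5, of which 3 were at lost domains, and none had H3K4me3.

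The other TSS within 1000 bp of members belonged to 1700093K21Rik, 4933406M09Rik, Actg1, Cdc23, Dnahc12, Gm13154, Gm13225, Gm17497, Gm7461, Oas1g, Prr14 and Rusc2. Oas1g, of the interferon-induced oligoadenylate synthetase family, had a weak member at a kept domain (13.5 and 12.6) with H3K4me3 in Spen KO only. Actg1, the cytoplasmic gamma actin, had H3K4me3 in both genotypes, and its member lay 226 bp from a WT H3K27Ac peak. No member had a TSS of the germline, protocadherin, olfactory and vomeronasal receptor, 2-cell stage, pluripotency, early lineage or innate immunity lists, nor of a numbered Zfp gene, within 1000 bp.

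By nearest gene, 25 members (5.49%, 3.75 to 7.99) lay nearest to an olfactory or vomeronasal receptor gene, against 0.878% of all autosomal Spen KO H3K27Ac peaks, and 15 (3.30%, 2.01 to 5.37) nearest to a Zfp gene, against 2.60%. Of the 25, 2 lay nearest to Vmn2r-ps100, 2 to Vmn2r-ps104 and 3 to Vmn2r-ps106, all in 1 stretch of chromosome 13, so they are not independent. Nearest genes of the shared and WT-only peaks inside domains were not counted. Whether the higher share goes with the gain or with lying in a domain was not tested. The nearest gene was in the imprinted list for 1 member, Zrsr1, and in none of the other lists. The pluripotency genes were nearest to 74 Spen KO peaks and to 0 members, a count of 0 that allows up to 0.837% by the Wilson interval.

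The densest group of members lay on chromosome 13. Between 65570996 and 67340817, 28 members fell within 1.77 Mb, all at kept domains, and a Spen KO domain lay over 24 of them. This stretch holds 25 protein-coding gene symbols of the annotation, among them 5 Zfp genes and 4 vomeronasal receptor pseudogenes. The peaks were narrow (median 397 bp, 195 to 1294 bp) and 3 had H3K4me3. The stretch was rich in H3K27Ac of both genotypes: it held 6.15% (4.29 to 8.75) of the members, 7.35% (5.69 to 9.45) of the shared peaks inside domains and 2.49% (1.32 to 4.67) of the WT-only ones. Per genotype it had 122 Spen KO and 106 WT peaks. Next in number came 9 members on chromosome 4 between 145100603 and 147009859, 2 of them at a lost domain over Gm13225, and 7 on chromosome 3 between 86642775 and 88549502, which include those of Dclk2. Another 7, all at kept domains, lay on chromosome 7 between 49751830 and 50419068, where 10 of 12 Spen KO peaks were absent from WT and the WT list had 3 peaks. Around Cdh9, 6 members at kept domains were all of the Spen KO H3K27Ac peaks between 16559789 and 17019589 of chromosome 15, where the WT list had 0 peaks. A Spen KO H3K9me3 domain lay over 5 of the 6. These stretches were picked for their members and run from the first member to the last. Members share no base with a WT peak by the rule, so the low WT counts in part describe the choice.

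**Figure D3:**
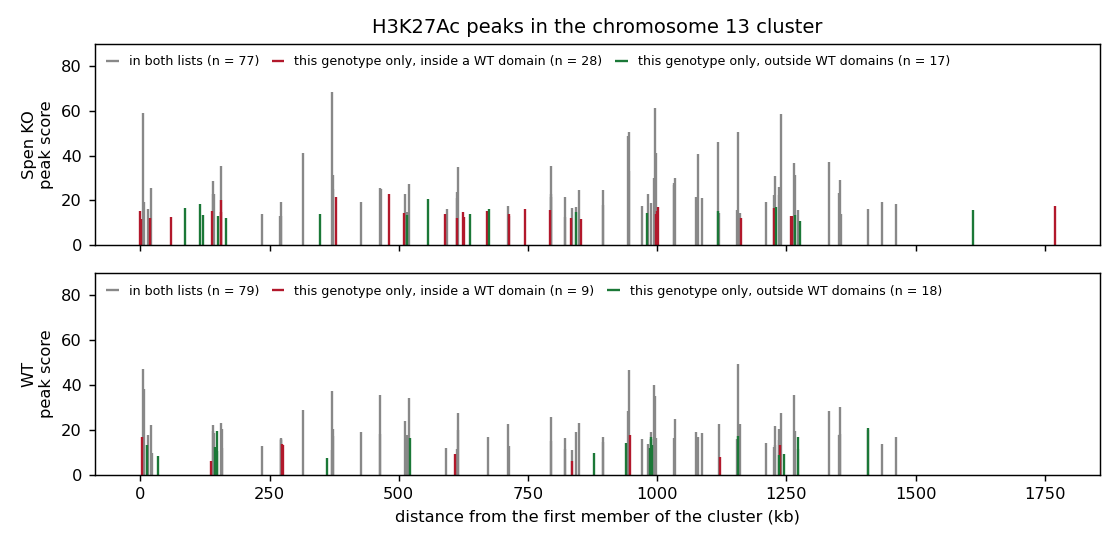
H3K27Ac peaks of Spen KO (top) and WT (bottom) along the chromosome 13 stretch, as distance from its first member (kb) against peak score; line height is the mean of the 2 deposited values. The 28 members, in red at the top, lie among 77 shared peaks, and the WT panel has 9 peaks in WT only inside a domain. Scores were not scaled between genotypes.

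Sequence with many genome copies had a higher share among members at kept than at lost domains, with intervals that overlapped. A peak was called multi-copy if at least 50% of its words of 31 bases had 10 or more copies in the genome, which held for 51 of 356 members at kept domains (14.3%, 11.1 to 18.3) and 6 of 99 at lost domains (6.06%, 2.81 to 12.6). It held for 7.09% (5.46 to 9.15) of the shared and 6.93% (4.73 to 10.0) of the WT-only peaks inside domains. Over all autosomal Spen KO H3K27Ac peaks it held for 2.21%. Members that share sequence are not independent, and 34 of the 36 in the set printed above lay at kept domains. The study describes alignments with unique reads and others with reads of many places assigned at random, and which of them the deposited lists rest on is not given in the sources used here.

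Members were joined into a family if they shared at least 20% of the words of the shorter one. This put 77 members into 15 families and left 378 on their own. The largest family was the 36 members on 18 chromosomes whose shared word is printed above. Of these, 34 lay at kept domains, 33 lay wholly inside WT domains, and a Spen KO domain lay over 24. None had a TSS within 1000 bp, 1 had H3K4me3 and 1 had Oct4 in any library. The next family had 6 members, all on chromosome 12, of which 2 gained H3K4me3. Asking for 30% or 50% of the words left 34 or 30 of the 36 together.

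What became of the other copies could be read from the genome. The words held by at least 18 of the 36 numbered 165, and they marked 463 loci on the autosomes. WT H3K9me3 was listed at 437 of these (94.4%, 91.9 to 96.1) and Spen KO H3K9me3 at 407 (87.9%, 84.6 to 90.6). The mark was in WT only at 32 loci and in Spen KO only at 2. H3K27Ac was at 54 loci in WT (11.7%, 9.05 to 14.9) and 76 in Spen KO (16.4%, 13.3 to 20.1). It was in both lists at 51, in Spen KO only at 25 and in WT only at 3, although the WT list was the longer. Most copies had no H3K27Ac peak in either genotype. Of the 36 members, 24 overlapped one of these loci, and because they founded the words, the 25 against 3 describes the choice and is no test.

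**Figure D4:**
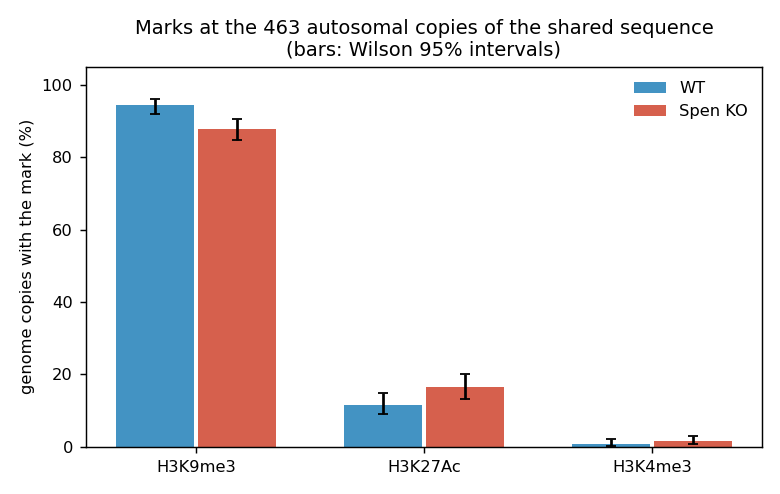
Share of the 463 autosomal copies of the sequence shared by 36 members (percent, with Wilson 95% intervals) that overlap H3K9me3, H3K27Ac or H3K4me3 in WT and Spen KO. H3K9me3 covers 94.4% and 87.9%, H3K27Ac 11.7% and 16.4%, and H3K4me3 under 2% of the copies.

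Oct4 was rare at the members. The WT lists placed it at 6 members (1.32%, replicate 1) and 27 members (5.93%, replicate 2). The Spen KO lists placed it at 17 (3.74%, replicate 1) and 36 (7.91%, replicate 2). The genotypes overlapped, with WT replicate 2 above Spen KO replicate 1. The means were 3.63 ± 3.26% (SD, n = 2) in WT and 5.82 ± 2.95% (n = 2) in Spen KO, a difference of 2.20 percentage points (two-sided exact permutation test, p = 0.667, smallest possible p = 0.333). Without WT replicate 1, which had the shortest list at 1783 autosomal peaks, the difference was -0.11 points, and without Spen KO replicate 2 it was 0.11 points, so it rests on these 2 libraries. By class the differences were 2.02 points at lost and 2.25 points at kept domains (p = 0.667 in each by the same exact test, 0.667 adjusted over the 3). Over all autosomal Spen KO H3K27Ac peaks the difference was 2.21 points, from a higher WT mean of 7.82%. The difference was 0.61 points at gained peaks outside domains and 8.02 points at shared peaks inside them. Whether the members stand apart in this was not tested. Oct4 was in at least 1 Spen KO and no WT library at 32 members, and the reverse held at 15. Of the 32, 23 had it in Spen KO replicate 2 alone. The 2 counts were 760 and 789 over all autosomal Spen KO peaks, 108 and 126 at gained peaks outside domains, and 89 and 51 at shared peaks inside them. The shared peaks inside domains had Oct4 more often in each of the 4 libraries: the WT shares were 3.48% and 24.6%, those of Spen KO 19.4% and 24.7%.

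**Figure D5:**
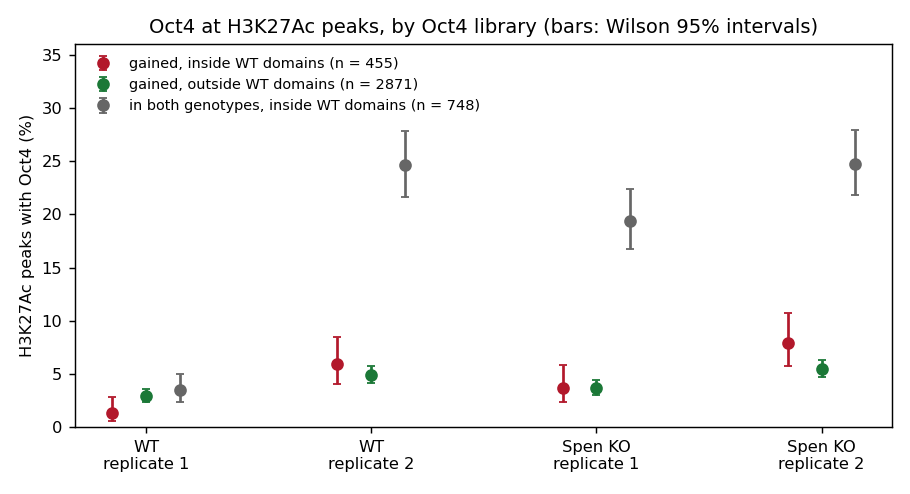
Share of H3K27Ac peaks with an Oct4 peak (percent, with Wilson 95% intervals) in each Oct4 library, for the members, the gained peaks outside domains and the shared peaks inside domains. The members lie between 1.32% and 7.91%, with the WT and Spen KO libraries overlapping, and the shared peaks lie higher in each library, from 3.48% to 24.7%. The gained peaks outside domains lie between 2.96% and 5.47%, within the range of the members.

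At 394 members no library had Oct4. The other 13.4% had Oct4 in at least 1 library, beside 11.2% of gained peaks outside domains and 20.8% of all autosomal Spen KO H3K27Ac peaks. Both Spen KO libraries had Oct4 at 7 members (1.54%), a lower share than the 6.01% of all autosomal Spen KO H3K27Ac peaks. At 3 of these 7 members no WT library had it, which is 0.659% of the members beside 1.55% of all autosomal Spen KO H3K27Ac peaks. The 3 were chr15:16838186-16841300, 130329 bp from the cadherin gene Cdh9 (5.10-fold and 7.09-fold over input in the Spen KO libraries), chr6:10040474-10043042, over 1 Mb from Nxph1 (8.10-fold and 6.66-fold), and chr11:72098438-72102249, 12881 bp from Xaf1 (6.50-fold and 7.59-fold). All 3 lay at kept domains and had no H3K4me3. The last held an Oct4 octamer, printed in capitals in 30 bases of mm9:
nearest gene Xaf1, chr11:72099560-72099589: acctgaggcttATGCAAATtcgagcaaggt
The other 4 also had Oct4 in WT replicate 2. They were chr4:117088152-117089228 in Rnf220 and chr10:41120107-41121100 in Akd1, both at kept domains, and a pair that shared sequence: chr6:3150788-3151559, at a kept domain, had 65.6% of its words in or within 2000 bp after chr17:39979959-39984303, a GC-rich peak (66.2%) at a lost domain, where this build holds a copy of the ribosomal RNA gene.

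Motif counts in the 300 bases at the peak middle set the members close to all autosomal Spen KO peaks for some motifs and apart for others. The octamer was in 5 of 455 (1.10%, 0.470 to 2.55) against 0.964% of all. The Esrrb motif was in 5.71% (3.93 to 8.24) against 6.36%, and the Klf motif in 7.03% (5.03 to 9.76) against 8.72%. The AP-1 motif was in 53 members (11.6%, 9.02 to 14.9) against 7.47%, and in 12.3% (10.1 to 14.8) of the shared peaks inside domains, while gained peaks outside domains had 6.41%, so the higher share went with lying in a domain. The ETS motif, whose letters hold a CpG, was in 2 members (0.440%, 0.121 to 1.59) against 4.92% of all and 2.01% (1.22 to 3.28) of the shared peaks inside domains. The E-box was in 2.86% (1.68 to 4.83) against 5.77% of all and 3.74% (2.60 to 5.36) of those shared peaks. For both motifs the intervals of members and shared peaks inside domains overlapped. A match is a run of letters and not a site of binding.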

How the data were processed

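ChIP libraries of 4 antibodies from WT and Spen KO clone 2 cells had been mapped by the authors with Bowtie2 to mm9, keeping unique concordant pairs and removing duplicates with Picard, and peaks called with MACS2 at q 0.01 over input. A second alignment placed reads of many places at random, and which alignment the lists come from is not given in the sources used here. For H3K27Ac and H3K4me3 the authors deposited 1 list per genotype with an IDR under 0.05, and 2 values per peak whose MACS2 column is not given in the sources used here. For H3K9me3 they deposited domains with a score. The methods name MACS2 for histone marks, but these domains run in steps of 200 bp, and the settings behind them are not given in the sources used here. For Oct4 they deposited a narrowPeak list per library with the fold enrichment over input. The deposited lists carry no read counts, so depth is unknown and the Wilson 95% intervals cover counting error of peaks only.

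Here, overlaps of at least 1 bp, distances to GENCODE vM1 protein-coding TSS, word copies of 31 bases in NCBIM37 and motifs were computed with Python 3, numpy and pandas, with the interval code tested on simulated data. A family joins members that share 20% of words, and a locus joins words within 1000 bp. The groups came from the sample titles. Oct4 was compared by an exact permutation of the 4 libraries. Named members were the 6 of highest mean H3K27Ac score per class, those with Oct4 in both Spen KO libraries, the 6 of highest score with H3K4me3 in Spen KO only, and those with a listed gene's TSS within 1000 bp. One member named by this rule is not reported here. Of the 10 stem cell markers, 9 were found by symbol. Ust, Etl4, Gpr1, Zdbf2, the members with a TSS outside the lists and the family were named after their values were seen. The members and lists were chosen with earlier results of these data known. Inputs were not used here, nor were X, Y and unplaced sequence, on which 19 further peaks met the rest of the rule.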

Additional observations from a re-analysis of the deposited data

How the results depend on the processing

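Of 70 recomputed values, 53 kept to the value reported (shares within its interval, counts within 1.5 times of it, the Oct4 difference by direction alone), 16 moved further and 1 reversed. The count of 455 members became 120 in the stronger 50% of the Spen KO H3K27Ac list and 259 with the stronger 50% of WT H3K9me3 domains, since fewer peaks or domains enter. The share at lost domains became 31.5% with lists of equal length, 11.6% with the stronger domains, and 44.6% if a Spen KO domain had to reach the H3K27Ac peak itself. The share wholly inside domains became 82.6% with an overlap of 50% of the shorter interval and 83.0% with the stronger domains. In the stronger 50% of the H3K27Ac list, 6.67% had a TSS within 1000 bp, 20.8% had H3K4me3 in Spen KO, 9.17% had it in Spen KO only and 9.17% were multi-copy. The TSS share was 9.89% within 5000 bp, H3K4me3 within 1000 bp gave 19.8% in Spen KO and 8.13% in Spen KO only, and the multi-copy share was 19.12% at 5 copies and 16.2% with the stronger domains. The causes were not tested. Leaving out members in multi-copy sequence, an alternative chosen after seeing the data, left 398 and 23.4% at lost domains.

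The Oct4 difference of 2.20 percentage points was -0.11 to 4.51 points when 1 library was left out, negative without WT replicate 1, and 0.55 to 6.25 points under the other alternatives (0.55 with the stronger 50% of each Oct4 list, 4.73 with Oct4 within 1000 bp, 6.25 in the stronger H3K27Ac peaks). With a replicate block it was 2.20 points (exact sign exchange, p = 0.50, the smallest this pairing allows). Deviations of libraries with the same number correlated at 0.0862 over 11620 peaks. At the members, replicate 2 had the higher Oct4 share in each genotype. Whether libraries of the same number share a batch is not given by the labels and was not tested. With 1 list per genotype, no histone comparison can separate genotype from library, and depth cannot be weighed.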
